A study of Mus musculus with 18 samples.

Results

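The nuclear RNA polymerases I, II and III transcribe the genome from 3 related multi-subunit enzymes, and the genes for their subunits were followed here through RNA, ribosome footprints and initiation sites in mouse erythroblasts. Members were all genes of the deposited count table whose symbol begins with Polr1, Polr2 or Polr3 and a letter, which gave 28 of 20683 genes. Of these, 3 encode subunits of polymerase I, 7 of polymerase II, 10 of polymerase III, 2 are shared by polymerases I and III, 5 are shared by all 3 enzymes, and 1 (Polr2m, also called Gdown1) encodes a protein that associates with polymerase II and is not a core subunit. In size, 6 members are the largest or the second largest subunit of an enzyme, called large subunits below (Polr1a, Polr1b, Polr2a, Polr2b, Polr3a and Polr3b), and 22 are smaller.

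Polymerase I makes the precursor of the large ribosomal RNAs, polymerase II makes messenger RNA and many non-coding RNAs, and polymerase III makes transfer RNA, 5S ribosomal RNA and other short RNAs. In each enzyme the pair of large subunits forms the catalytic center, and smaller subunits form the assembly platform, the stalk and the zinc ribbon that helps to cleave the transcript. Erythroid precursors divide several times and then condense their nuclei, and both ribosome production and global transcription decline as they mature.

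The cells were erythroblasts from Trp53 -/- fetal livers on an FVB/n x C57BL/6 background, kept in culture with erythropoietin (0.5 U/ml), dexamethasone (1 nM) and stem cell factor (1% of supernatant), so every group lacked p53. Tunicamycin, which blocks N-glycosylation in the endoplasmic reticulum and served in this study to bring on eIF2 phosphorylation, was given at 2.5 ug/ml for 1.5 h or left out. Each condition was measured in 3 libraries of total RNA, 3 of ribosome footprints after cycloheximide, which halts elongation (5 min at 100 ug/ml), and 3 after harringtonine, which holds ribosomes at initiation sites (2 ug/ml). The labels do not say whether libraries came from separate animals or cultures, and the p-values therefore reflect only how much these libraries vary, which may be technical variation.

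RNA libraries held 12883350 to 48992797 counted reads and coding-sequence (CDS) footprints 4531945 to 6652042, while 5′ leaders held 274822 to 590029 and 3′ UTRs 102120 to 151716. Erythroid markers were abundant in untreated RNA, with Car2 at 1607 ± 95.8 and Tfrc at 1120 ± 15.7 counts per 1000000 counted reads (CPM, SD, n = 3), but the globin genes Hba-a1 and Hbb-bt were listed at 0 in every library. Macrophage, neutrophil, hepatocyte and stromal markers were all below 2 CPM in RNA, and markers of megakaryocytes and mast cells were mixed. In untreated RNA Gp5 stood at 108 ± 2.05 but the other megakaryocyte markers, Pf4 and Itga2b, at 0.818 ± 0.193 and 4.77 ± 0.552 CPM, and Ms4a2 stood at 139 ± 33.0 but the other mast cell marker, Cpa3, at 2.46 ± 0.581 CPM. Under tunicamycin Atf4 CDS footprints went from 76.1 ± 3.62 to 342 ± 56.5 CPM.

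Sequences around harringtonine positions are shown first, since these positions show where ribosomes were held. The RefSeq start windows (GRCm38.p6, 250 bases before to 50 after the start) held 8 harringtonine positions in 6 members. The RefSeq start here is the transcription start of the gene and not the start codon. The 5 with an ATG in the 30 bases around them are printed, and the 30 bases around the position of Polr2a and both positions of Polr2h held none. Capitals mark an ATG and, in the first pair, also an in-frame stop codon. The first pair are the reading frames that open at the ATG 13 and 12 bases 3′ of the 2 positions of Polr3c, at chr3:96727423-96727452 and chr3:96727411-96727425 on the minus strand. The others are 30 bases around the position nearest the RefSeq start, beginning 12 bases before it, in Polr1a (chr6:71909059-71909088, plus strand), Polr2e (chr10:80039614-80039643, minus strand) and Polr3e (chr7:120917798-120917827, plus strand).
Polr3c, first frame: ATGgtgctctacttcTAAgaaggggcgATG
Polr3c, second frame: ATGggaagctcaTGA
Polr1a: gtggaaaaacacATGgtggctctgcgctac
Polr2e: cagcATGgacgacgaggaggagacctaccg
Polr3e: gtttctccagcaggaacATGgccgctgcct

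In Polr3c, which encodes a subunit of the part of polymerase III needed for initiation, the first frame ran for 5 codons before its stop and the second for 4. Both lie within the span of the Polr3c gene. The position of the first frame was at -26 bases from the nearest RefSeq transcription start, so the ATG of that frame lies before this start. From which transcript the reads came was not tested. In Polr1a the ATG began at the position itself, in Polr2e 8 bases before it, and in Polr3e 5 bases after it. Over all deposited positions whose offsets fell inside a window, 185 of 740 (25.0%) had the letters ATG, on the strand of the position, 12 or 13 bases 3′ of it. At any single other offset within 30 bases the share had a median of 0.593% and a highest value of 4.02%. A match of letters describes these windows and is no proof of initiation at that codon.

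In RNA, the messengers of the largest subunits of polymerases I and II were higher under tunicamycin, and no other subunit passed the test. Polr2a, which encodes the largest subunit of polymerase II and carries its C-terminal heptad repeats (chr11:69733997-69758633), stood at 121, 101 and 97.3 CPM in the untreated libraries and at 180, 147 and 174 CPM under tunicamycin. All 3 treated libraries lay above all untreated ones, and the log2 change was 0.65 ± 0.09 (SE, edgeR adjusted p = 0.0261). Polr1a, the largest subunit of polymerase I (chr6:71909053-71979435), went from 41.7, 40.1 and 41.1 CPM to 53.9, 54.0 and 64.0 CPM, again without overlap (log2 0.49 ± 0.07, edgeR adjusted p = 0.0379).

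These 2 of 28 members compare with 16 of 10643 genes tested in RNA (0.150%), all of them higher. The replicate numbers were taken to pair the RNA libraries, although the main test was unpaired. With the number as a block 410 genes passed (3.85%), but among the members again Polr1a and Polr2a (edgeR adjusted p = 0.00658 and 0.00167). Both calls were lost, leaving 0 members, without untreated replicate 2 or 3 or without tunicamycin replicate 2 or 3, with log2 changes of 0.42 to 0.53 for Polr1a and 0.59 to 0.72 for Polr2a in those fits.

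The other large subunits moved less in RNA. Polr3a, the largest subunit of polymerase III, stood at 50.4, 42.8 and 44.6 CPM untreated and at 52.9, 51.6 and 53.2 CPM under tunicamycin, without overlap, yet its log2 change of 0.20 ± 0.07 did not pass (edgeR adjusted p = 0.341). Polr1b, the second large subunit of polymerase I, had 176, 157 and 155 CPM untreated against 198, 173 and 169 CPM. For Polr2b, its counterpart in polymerase II, the values were 194, 179 and 196 against 209, 191 and 199 CPM. In Polr3b they were 55.2, 50.5 and 53.2 against 59.6, 53.9 and 56.3 CPM. The groups overlapped in all 3 of these genes, with log2 changes of 0.15 ± 0.08, 0.09 ± 0.06 and 0.10 ± 0.07.

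**Figure D1:**
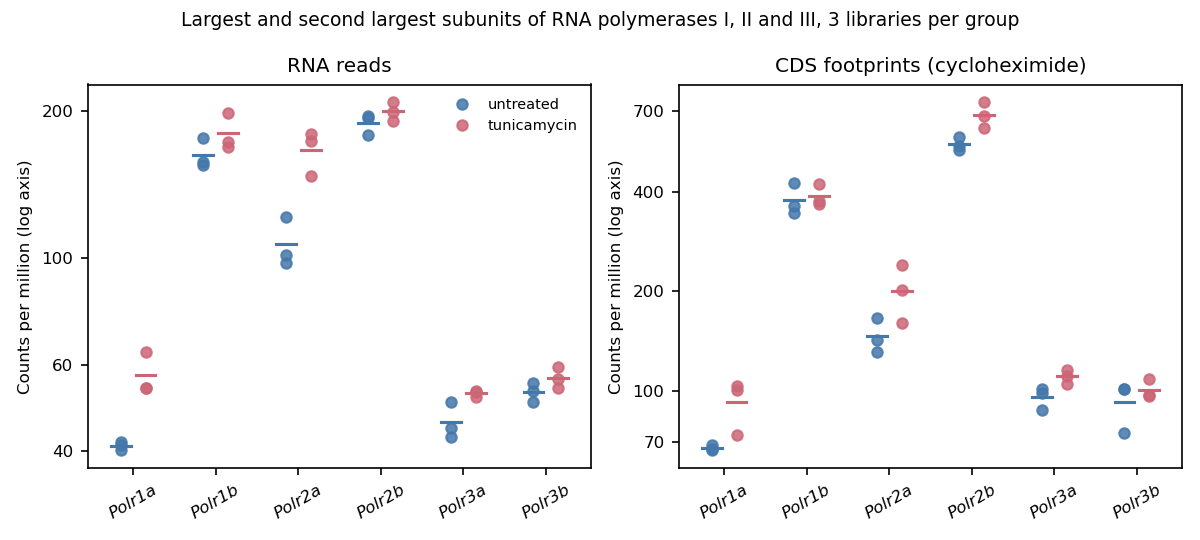
CPM (log axis) of the 6 large subunits in RNA (left) and CDS footprints (right); each point is 1 library and each bar a group mean of 3 libraries. Treated and untreated points do not overlap for Polr1a, Polr2a and Polr3a in RNA and for Polr1a, Polr2b and Polr3a in footprints.

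RNA estimates lay above 0 more often among large than among small subunits. In RNA all 6 large subunits had a log2 change above 0, with a median of 0.18, against 6 of 22 small subunits, with a median of -0.08; over all genes tested 48.5% were above 0 and the median was -0.0050. Summed CPM of the 6 large subunits stood at 639, 570.5 and 587 in untreated RNA and at 753, 671 and 715 under tunicamycin, so the groups did not overlap. The 22 small members summed to 2468, 2589.6 and 2526 CPM untreated and to 2396, 2467 and 2359 CPM treated. The highest treated value lay just below the lowest untreated one. These sums include Polr2m, which is not a core subunit, at 412, 408 and 420 CPM untreated and 406, 391 and 382 CPM treated. Without Polr2m the treated and untreated sums overlap. No test was made of the classes themselves. The large subunits also have long coding sequences, and the size classes were not compared with genes of like coding length.

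By enzyme, the RNA estimates were above 0 for 3 of 3 polymerase I members, 2 of 7 polymerase II members, 5 of 10 polymerase III members and 1 of 5 members shared by all enzymes. The 5 small subunits of polymerase II all lay below 0, between -0.15 and -0.02, and none passed. Among all members the RNA groups did not overlap in 5 of 28 in the higher direction (8.40% of all genes tested) and in 3 of 28 in the lower direction (9.47%). Besides Polr1a, Polr2a and Polr3a, the higher ones were Polr3c and Polr3e, and the lower ones included Polr2i (the zinc ribbon subunit of polymerase II) and Polr2m. Their log2 changes were between -0.15 and 0.10.

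Footprints on coding sequences rose for 4 members and fell for none among the 27 that passed the filter on low counts, against 239 of 9265 genes tested (2.58%), with 1.78% higher and 0.799% lower. At an unadjusted p under 0.05 12 members passed, 11 of them higher, beside 16.6% of all genes tested. Polr1a rose in footprints as in RNA, from 66.7, 65.9 and 68.6 CPM to 100.1, 73.3 and 103 CPM (log2 0.47 ± 0.12, edgeR adjusted p = 0.0470). The other 3 encode small subunits of polymerase III or of all enzymes, and their RNA did not pass.

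Polr3k, the zinc ribbon subunit of polymerase III, had 74.3, 57.9 and 81.7 CPM of footprints untreated and 95.9, 96.0 and 122.7 CPM under tunicamycin. Each treated library lay above each untreated one, at a log2 change of 0.57 ± 0.13 (edgeR adjusted p = 0.0284), while its RNA estimate was -0.10 ± 0.07. Polr3gl, a paralog of Polr3g in the initiation subcomplex of polymerase III, went from 24.2, 20.1 and 16.1 CPM to 27.8, 30.7 and 41.1 CPM, also without overlap (log2 0.73 ± 0.17, edgeR adjusted p = 0.0404). Its paralog Polr3g had 24.7, 26.6 and 21.4 CPM untreated and 23.4, 21.0 and 22.0 CPM treated (log2 -0.12 ± 0.14, not passing), and the difference between the paralogs was not tested.

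Polr2k, a small subunit common to the 3 enzymes, rested on few footprints: 29, 29 and 33 reads in untreated and 37, 39 and 60 in treated libraries, or 4.36, 4.48 and 5.14 against 7.46, 8.61 and 11.8 CPM. Its log2 change was 1.01 ± 0.22 (edgeR adjusted p = 0.0296). The leader of Polr2k held nearly as many reads in each library (27, 26 and 30, then 35, 37 and 55), equal to 92.5% of the CDS count in all, and whether the same reads were counted in both features was not tested. The span of Polr2k also shares 784 bases with that of Spag1, and the rule by which reads there were assigned was not stated.

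The footprint calls depended on single libraries. Leaving out untreated replicate 2 or tunicamycin replicate 3 left 0 members, leaving out untreated replicate 1 left Polr3gl, and leaving out tunicamycin replicate 2 left Polr1a with Polr2a added. Without untreated replicate 3, Polr3k, Polr2e and Polr2f passed, and without tunicamycin replicate 1, Polr2f passed in place of Polr1a. With the replicate number as a block, which was not taken to pair the footprint libraries, 9 members passed, beside 9.55% of all genes tested.

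Polr2a and Polr2b had footprint estimates above 0 that did not pass. Polr2a went from 166, 143 and 131 CPM to 239.8, 159.8 and 202 CPM (log2 0.46 ± 0.13, edgeR adjusted p = 0.0823), so that 1 treated library lay within the untreated range. Polr2b went from 587, 535 and 552 CPM to 678, 622 and 748 CPM without overlap (log2 0.30 ± 0.09, edgeR adjusted p = 0.0939). In polymerase III, Polr3a had 98.3, 101 and 87.1 CPM untreated and 115, 105 and 111 CPM treated (log2 0.22 ± 0.10, not passing), and Polr3b had 101, 101 and 74.2 against 108, 96.4 and 96.7 CPM (log2 0.14 ± 0.12, not passing). Polr1b stood at 424, 363 and 346 CPM untreated and at 422, 375 and 367 CPM treated, a log2 change of 0.05 ± 0.10 with an approximate 95% interval of -0.15 to 0.25.

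The lowest footprint estimate belonged to Polr3e, part of the TFIIF-like subcomplex of polymerase III. It had 72.8, 80.0 and 68.4 CPM untreated and 58.0, 66.2 and 52.5 CPM treated, without overlap (log2 -0.31 ± 0.11, edgeR adjusted p = 0.159). Groups did not overlap in 7 of 27 members in the higher direction (10.1% of all genes tested) and in Polr3e alone in the lower direction (11.8%). All 6 large subunits were above 0 in footprints, with a median of 0.26, against 11 of 21 small subunits, with a median of 0.0064, and 50.5% of all genes. Among the 4 tested members shared by all enzymes, Polr2e, Polr2f and Polr2k were above 0 (0.35, 0.47 and 1.01) and Polr2h was below (-0.22).

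Polr2l, another small subunit shared by the enzymes, was not tested in footprints. It had 471 to 2757 RNA reads in each library but 3 CDS footprints in all 6 cycloheximide libraries together, and its 3′ UTR held 15.

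**Figure D2:**
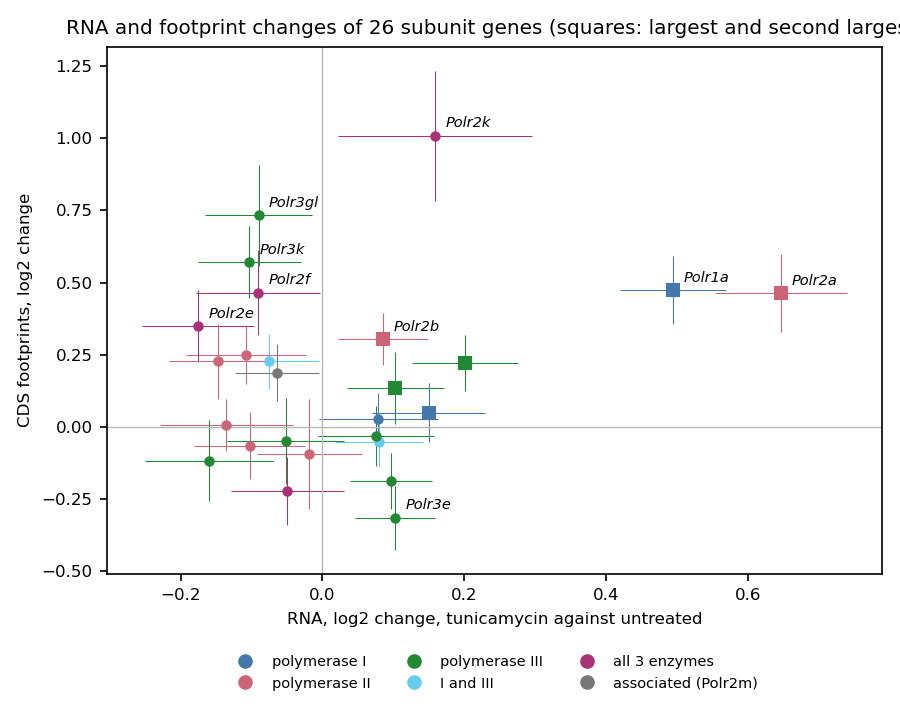
Log2 change under tunicamycin in RNA (x axis) and in CDS footprints (y axis) for 26 members, with bars of 1 SE, colored by enzyme and with squares for the large subunits. Polr1a and Polr2a lie to the right at 0.49 and 0.65 in RNA, while Polr2k, Polr3gl and Polr3k are high in footprints only on this scale, at 1.01, 0.73 and 0.57.

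Translational efficiency (CDS footprints per RNA read) passed in 1 of 28 members, against 112 of 10154 genes tested (1.10%) and 0.788% in the higher direction. That member was Polr3k, with a log2 change of 0.67 ± 0.16 (edgeR adjusted p = 0.0488), and the call was lost in 10 of 17 alternatives, each of which left out 1 of the 12 libraries. Among those fits it held only without tunicamycin cycloheximide replicate 1 or untreated cycloheximide replicate 3. Polr3gl had a larger estimate of 0.82 ± 0.20 and stood on the other side of the threshold (edgeR adjusted p = 0.0512). Polr2k at 0.85 ± 0.29, Polr2f at 0.55 ± 0.20 and Polr2e at 0.52 ± 0.16 did not pass either. The lowest was Polr3e at -0.42 ± 0.12 (edgeR adjusted p = 0.0983), followed by Polr3c at -0.29 ± 0.10. Polr2l gave 1.60 ± 2.05, the widest error of the members, from its 3 footprints. With the replicate number as a block, which was taken to pair the libraries in RNA only, 737 genes passed (7.26%), among them 8 members. These were Polr3k, Polr3gl, Polr2e, Polr2f, Polr1d, Polr2d and Polr2i in the higher direction, and Polr3e in the lower (edgeR adjusted p = 0.00846).

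The 2 genes that rose in RNA had efficiency estimates near or below 0. For Polr1a the change was -0.02 ± 0.15, and for Polr2a it was -0.19 ± 0.19. Large subunits had a median of -0.00080 in efficiency with 3 of 6 above 0, and small subunits a median of 0.11 with 14 of 22 above 0. For all genes tested the median was -0.0090, with 48.3% above 0.

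**Figure D3:**
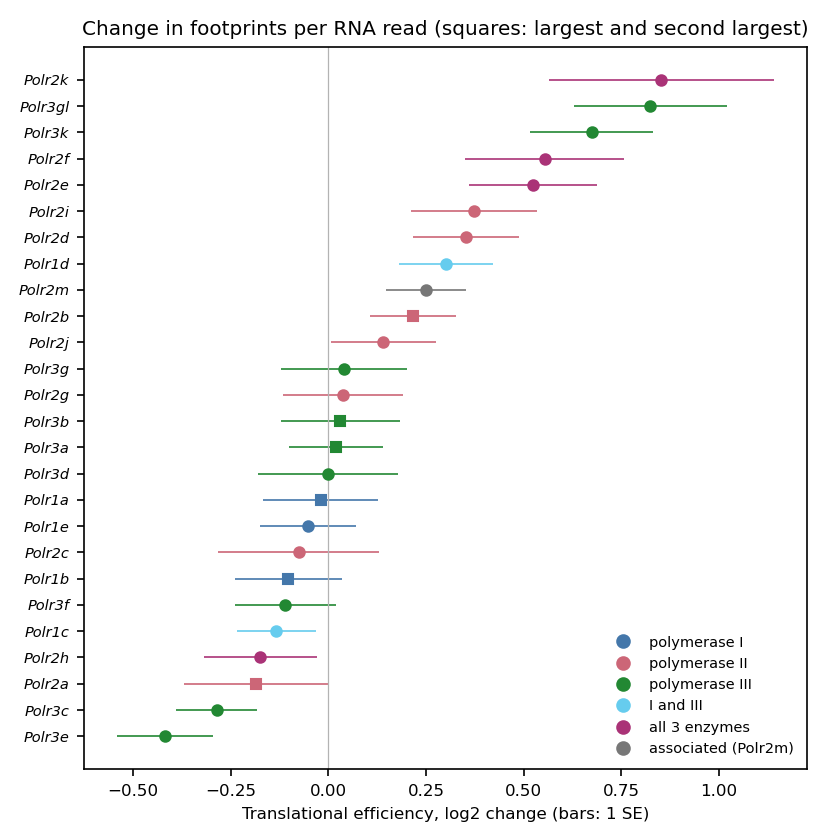
Log2 change in translational efficiency of 26 members (x axis) in order of size, with bars of 1 SE; Polr2l is left out because its SE is 2.05. Small subunits of polymerase III stand at both ends, Polr3gl (0.82) and Polr3k (0.67) near the top and Polr3c (-0.29) and Polr3e (-0.42) at the bottom.

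Ribosomes on the 5′ leader, where short upstream reading frames can lie, were counted apart from those on the CDS. The ratio of leader to CDS footprints rose under tunicamycin for most genes: the median log2 change over all 9236 genes tested was 0.86, and 3122 passed (33.8%), of which 3116 were higher (33.7%) and 6 lower (0.0650%). Among the members 12 of 27 rose (44.4%) and none fell, with a median of 0.90, so the members' changes are given beside that general rise. The test set each change against 0 and not against that rise. Polr1a (log2 0.74) and Polr1d (log2 0.75) passed with changes below the median of all genes tested. Whether any member changed more than genes in general was not tested. The leader share, leader footprints as a percentage of leader plus CDS footprints, did not overlap between groups in the higher direction in 17 of 27 members, against 45.2% of all genes tested.

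Polr3e changed most. Its efficiency estimate was the lowest but did not pass, and the ratio and the efficiency share its CDS footprints, so they are not independent. Its leader held 11, 7 and 8 reads untreated and 28, 19 and 36 treated, which took the leader share from 2.22, 1.33 and 1.79% to 8.86, 5.96 and 11.9%. The log2 change in ratio was 2.40 ± 0.39 (edgeR adjusted p = 1.12e-05). Polr3d, its partner in the TFIIF-like subcomplex, went from 2.42, 1.15 and 2.65% to 7.46, 5.65 and 6.32% on 3 to 15 leader reads a library (log2 1.72 ± 0.48, edgeR adjusted p = 0.00500).

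Polr3c, whose 2 short frames are printed above, had leader shares of 11.9, 11.9 and 18.4% untreated and of 24.0, 23.6 and 31.6% treated. These rest on 240 leader reads untreated and 347 treated, and the log2 change was 1.14 ± 0.28 (edgeR adjusted p = 0.00147). Polr3g reached 1.52 ± 0.55 on 12 and 24 reads. With 5 of 10 members passing, polymerase III had a median of 1.33.

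In polymerase II the leader ratio rose for 4 of 7 members. Polr2a went from 2.64, 1.18 and 2.999% to 5.56, 6.46 and 8.06% (log2 1.62 ± 0.33, edgeR adjusted p = 0.000229), and Polr2b from 2.98, 2.26 and 2.32% to 4.65, 3.69 and 6.10% (log2 0.95 ± 0.28, edgeR adjusted p = 0.00709). The other 2 were Polr2j, of the assembly platform, at 1.47 ± 0.40, and Polr2g, of the stalk, at 1.17 ± 0.42. Polymerase I had 2 of 3: Polr1b at 1.60 ± 0.39, with shares of 0.388, 0.339 and 0.582% against 1.27, 1.28 and 1.38%, and Polr1a at 0.74 ± 0.28, with 13.1, 9.15 and 11.5% against 16.5, 18.8 and 17.3%. The ratio of Polr1d, shared by polymerases I and III, rose by 0.75 ± 0.29 (edgeR adjusted p = 0.0378), although 1 untreated library lay within the treated range of shares.

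None of the 4 tested members shared by all enzymes passed in the leader ratio. Their estimates ran from 0.04 ± 0.34 in Polr2k to 0.90 ± 0.38 in Polr2h, with a median of 0.59. Polr2k had the highest leader share of the members, 47.7 ± 0.476% untreated and 48.4 ± 0.476% treated (SD, n = 3), beside its near equal leader and CDS counts. Next was Polr2m, at 35.2 ± 1.30% and 33.7 ± 0.817%, the only member with a ratio estimate below 0 (-0.10 ± 0.25). Then came Polr2d, of the polymerase II stalk, at 25.4 ± 2.17% and 30.8 ± 2.09% (log2 0.39 ± 0.26, not passing).

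Leaving out tunicamycin replicate 3 left 7 members passing in the leader ratio, and DESeq2 also called 7, with 1202 genes in all. Polr1b, Polr2a, Polr3c, Polr3d and Polr3e were among those that passed in each of the 9 alternatives run for that ratio.

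**Figure D4:**
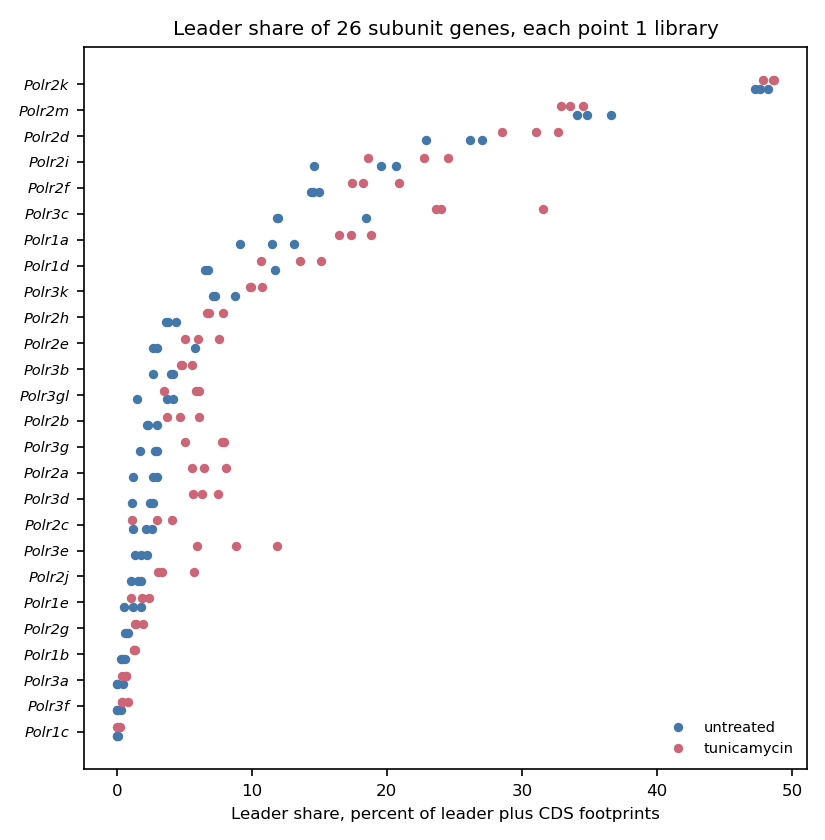
Leader share in percent (x axis) of 26 members ordered by their untreated mean, each point 1 of 3 cycloheximide libraries per group. Polr3c, Polr1a, Polr2d and Polr2f show treated points to the right of all untreated ones at shares above 9%. Polr2k and Polr2m stay near 48 and 34%.

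In the 3′ UTR the ratio to CDS footprints passed in 1 of 27 members, against 31 of 9230 genes tested (0.336%), 0.249% in the higher and 0.0867% in the lower direction. Polr1d, an assembly platform subunit of polymerases I and III, held 8, 2 and 4 reads there untreated and 13, 19 and 45 treated. Its log2 change was 2.58 ± 0.42 (edgeR adjusted p = 1.84e-06), without overlap, but DESeq2 gave an adjusted p of 0.997 at a log2 change of 2.57 and called 0 genes in all. The span of Polr1d shares 573 bases with the pseudogene Rps10-ps4, and whether the 3′ UTR reads fell there was not tested. Polr1a, Polr2c, Polr2k, Polr3a and Polr3c were listed at 0 in the 3′ UTR in every library. Polr2f and Polr2m, at -0.71 ± 0.24 and 1.34 ± 0.46, did not pass.

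Harringtonine positions marked 20 of the 28 members, at 36 of 9025 positions. At every deposited position the 3 libraries of at least 1 treatment summed to 20 reads or more. A member without a position may lie below that observed limit. The 8 members without a position were Polr2d, Polr2l, Polr2m, Polr3a, Polr3f, Polr3g, Polr3gl and Polr3k. Of the 29 positions in genes with a RefSeq transcription start, 23 lay within 300 bases of it. The distance is along the genome with introns counted, and distance from the start codon was not measured. Polr2b had the most positions, 5, and the most reads, 1273 untreated and 1581 treated, and the others had 1 to 3 positions.

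No member passed in harringtonine reads, where the tests could find little. In simulated counts with a log2 change of 1, the same edgeR tests recovered 8 of 100 changed genes and 1 of 100 changed positions. The lack of calls therefore does not show that these reads were unchanged. Of 18 members tested per gene 0 passed in edgeR (0 at an unadjusted p under 0.05, and 0 in DESeq2), against 1 of 3681 genes (0.0272%). Of 25 member positions tested 0 passed (0 at an unadjusted p under 0.05, and 0 in DESeq2), as did 0 of 5843 positions (0.00%), of which 212 had an unadjusted p under 0.05. Polr3d had the largest change per gene, with 7, 13 and 9 reads untreated and 19, 16 and 34 treated (log2 0.92 ± 0.45, edgeR adjusted p = 0.998). Its positions summed to 17 and 12 reads untreated and to 33 and 36 treated. They met the limit of 20 reads only through the treated libraries, which favors a higher treated value.

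The strand-specific position of Polr3c at 96727437, which lies 12 bases before the ATG of the second frame, had 64, 68 and 84 reads untreated and 117, 120 and 145 treated. As CPM of the kept harringtonine reads these were 122, 152 and 174 against 181, 215 and 245, without overlap, at a log2 change of 0.52 ± 0.28 (edgeR adjusted p = 0.999). The position of the first frame, 28 bases upstream, had 51, 40 and 40 reads untreated and 42, 57 and 32 treated (log2 -0.29 ± 0.32). The difference between these 2 positions was not tested. Groups did not overlap in the higher direction in 2 of 36 member positions, the other being a Polr3d position with 3, 5 and 4 against 11, 9 and 16 reads, beside 6.23% of all positions. In the lower direction this held for 0 of 36, beside 5.06%. The largest position estimate was that of Polr2j at 136116792, 10, 0 and 6 reads untreated against 19, 8 and 11 (log2 0.94 ± 0.70, not passing). This Polr2j position and the Polr3d position above summed to 16 and 12 reads untreated and to 38 and 36 treated. They met the limit of 20 reads only through their treated libraries, and such a limit favors a higher treated value at such positions.

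**Figure D5:**
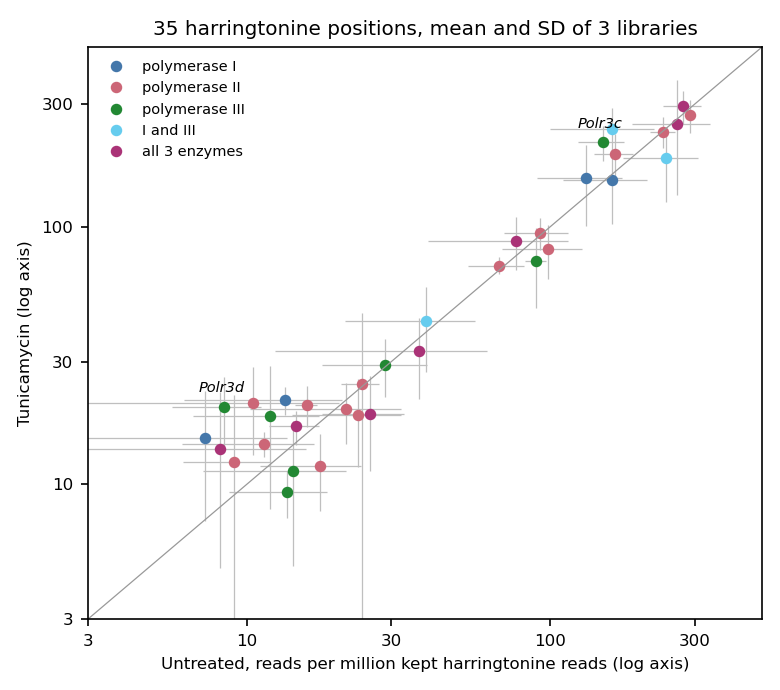
CPM of kept harringtonine reads at 35 member positions, untreated (x) against tunicamycin (y), both on log axes, as mean and SD of 3 libraries, with the line of equal values. The 2 named positions, in Polr3c and Polr3d, are those whose groups did not overlap.

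Genes that work with the polymerases were read from 6 lists in the same fits, and few passed in RNA, CDS footprints or efficiency. In RNA 0 of 73 genes in the lists passed in edgeR or in DESeq2, and 7 had an unadjusted p under 0.05, beside 12.4% of all genes tested. The lists were subunits that carry other symbols (5 genes), polymerase I factors (6), polymerase II general factors (18), polymerase III factors (11), elongation and pausing factors (20) and assembly factors (13). Polymerase I factors, which load the enzyme on ribosomal DNA, had 6 of 6 RNA estimates above 0 with a median of 0.14, and polymerase III factors 3 of 11 with a median of -0.03.

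In CDS footprints 1 list gene passed: Gtf2h5, the smallest subunit of the general factor TFIIH, rose by 0.62 ± 0.10 (edgeR adjusted p = 0.00338). Its efficiency rose by 0.67 ± 0.11 (edgeR adjusted p = 0.0114). Efficiency of Tcea1, the elongation factor TFIIS, which helps stalled polymerase II to cleave its transcript, fell by 0.55 ± 0.12 on the log2 scale (edgeR adjusted p = 0.0375). Taf1a, of the polymerase I selectivity factor, stood at 0.56 ± 0.14 in footprints (edgeR adjusted p = 0.0506), and Maf1, a repressor of polymerase III, at -0.24 ± 0.11 (not passing).

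Of the subunits under other symbols, Twistnb, Crcp, Znrd1 and Cd3eap had RNA changes between -0.09 and 0.19 and footprint changes between -0.13 and 0.28, none passing. In the leader ratio, the counts that rose were 2 of 5 subunits under other symbols (Crcp and Znrd1), 3 of 6 polymerase I factors, 13 of 18 polymerase II general factors, 4 of 11 polymerase III factors, 9 of 19 tested elongation and pausing factors and 6 of 13 assembly factors, and none fell, beside the 33.7% of all genes tested that rose.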

How the data were processed

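The deposited table held raw counts per gene for RNA and, by feature (5′ leader, CDS, 3′ UTR), for cycloheximide footprints, and the deposited harringtonine files held counts at single positions. The submitters' processing notes name STAR, HTSeq, edgeR, mm10 and GRCm38; no version or counting option is stated in them. Members and gene lists were chosen with earlier results of these data known.

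The test was the quasi-likelihood test of edgeR 4.0.16, run in R 4.3.3 (TMM factors, filterByExpr with a minimum count of 10 and total of 15, glmQLFit, glmQLFTest, Benjamini-Hochberg over all genes; passing is an adjusted p under 0.05). TMM sets the typical gene near 0. Efficiency was the interaction of assay and treatment over 12 libraries. Leader and 3′ UTR ratios were the interaction of feature and treatment with a term per library and 1 scaling factor for both features. SE is the log2 change divided by the root of F. Genes named in full were the large subunits, each member that passed, and the members with the smallest p or the largest change in each comparison. From each gene list up to 4 genes with the smallest p were eligible.

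Deviations of same-numbered libraries correlated at 0.416, 0.312 and 0.191 in RNA, which was taken as pairing. In CDS footprints they correlated at 0.348, 0.0943 and 0.277, which was not taken as pairing. The main tests of RNA, CDS footprints and efficiency were unpaired. Harringtonine columns gave the treatment but were not tied to a sample number, so no block was fitted there. The scripts were tested on simulated data. DESeq2 1.42.0, RLE scaling, robust estimation, no filter, a replicate block and leaving out each library were tried as alternatives. Levels were not compared between genes, because coding lengths were not used here. Sequences are from RefSeq (GRCm38.p6), whose table of transcription starts matched 22 of 28 members. Spans of 10 members overlap another gene. Among them, Polr1a overlaps the pseudogene Gm19078 and the long non-coding RNA Gm26628, by up to 2641 bases. Counts cover all members, but 1 member is not reported here by name or shown in the figures.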

Additional observations from a re-analysis of the deposited data

How the results depend on the processing

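Counts of members passing moved with the processing. In CDS footprints 8 members passed with no filter on low counts and 9 with the replicate block (Polr2a, Polr2b, Polr2e and Polr2f higher and Polr3e lower were added), against 4 in the results; in translational efficiency the counts were 3 with DESeq2, 5 with no filter, 2 with robust estimation and 8 with the replicate block, against 1. The leader ratio gave 7 with DESeq2 and the 3′ UTR ratio 0. Leaving out 1 library gave 0 to 2 members in RNA, 0 to 4 in CDS footprints, 0 to 4 in efficiency and 7 to 12 in the leader ratio. In RNA and in both harringtonine tests the other alternatives gave the same member count (2, 0 and 0). The cause of these shifts was not tested.

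Signs changed for 4 large subunits near 0 when 1 library was left out. Footprint estimates then ranged from -0.0287 to 0.1453 for Polr1b (also -0.0261) and from -0.0164 to 0.2117 for Polr3b. Efficiency estimates ranged from -0.1059 to 0.1169 for Polr1a (also 0.0538), from -0.0620 to 0.0711 for Polr3a (also -0.0228 and -0.0535), and from -0.1209 to 0.1104 for Polr3b (also -0.0356).

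The same-numbered libraries were taken as paired only in RNA, although each cycloheximide library also correlated best with its own number. In RNA, untreated replicate 2 and tunicamycin replicate 3 correlated at 0.19, close to the 0.191 of the third same-numbered pair. Whether the footprint libraries were paired was not tested further. The planned correction for coding length and the planned replicate block for harringtonine were not run; the leader and 3′ UTR fits carry a term for each library. Some calls rest on few reads: 26 and 83 in the leader of Polr3e, and 14 and 77 in the 3′ UTR of Polr1d.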
